A study of Mus musculus with 15 samples.

Results

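Hyaluronan is a long sugar polymer of the extracellular matrix, and the 8 mouse genes described here cover its manufacture, its cutting and its binding by cells. They are the hyaluronan synthases Has1, Has2 and Has3, the degrading enzymes Hyal1 and Hyal2, the hyaluronan-cleaving protein Cemip, the hyaluronan-binding protein Tnfaip6 and the receptor Cd44. The genes were picked by name and found through their Ensembl identifiers, which made up 8 of the 33340 genes in the count table. RNA was measured by sequencing polyadenylated transcripts of whole lung from male C57BL/6 mice of 10 to 12 weeks, an inbred laboratory strain, and no engineered allele was named for any group. Bleomycin, a drug that breaks DNA and scars the lung, was given once into the trachea at 5 U/kg, and lungs were taken at day 7 (n = 4), day 14 (n = 4) and day 21 (n = 3). The day 0 group (n = 4) was labeled as untreated, and its labels named no vehicle instillation. The treatment label of day 0 replicate 4 named bleomycin while its title called it a control, so it was kept at day 0 by its title, and results that change without it are marked.

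The 15 libraries held 15652008 to 18020661 gene counts each. Markers of alveolar type 2, alveolar type 1 and endothelial cells were detected in every library, with no gene of these lists at 0. Mitochondrial genes took 2.03% to 4.22% of the counts, and all 4 day 7 libraries, day 0 replicates 1 and 2 and day 14 replicate 1 lay under 2.5%, while day 0 replicates 3 and 4 and day 14 replicates 2, 3 and 4 lay over 3.5%. Day 21 was split, at 4.01%, 3.18% and 2.66% in replicates 1, 2 and 3, so no comparison of day 21 with day 0 was matched on this share. Day 7 was therefore also compared with day 0 within the lower-share libraries and day 14 within the higher-share ones, and those values are given with each member. The labels do not say which libraries came from separate mice, so p-values measure the spread between these libraries. Levels below are CPM, the counts of a gene scaled to a fixed library size, and levels of different genes are compared only as CPM per kilobase of exon. A gene was called changed at an adjusted p under 0.05 (edgeR's quasi-likelihood test, Benjamini-Hochberg adjustment over all 17457 genes tested) together with a fold change over 1.5.

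As background, the 3 synthases sit in the plasma membrane and extrude hyaluronan as they build it from activated sugars, and Has2 is the one on which embryonic heart development depends. Hyal2 at the cell surface and Hyal1 in lysosomes cut the polymer in steps, and Cemip, also called KIAA1199 or HYBID, takes part in its depolymerization by skin and joint fibroblasts. Tnfaip6, known as TSG-6, is a secreted protein that moves protein chains of inter-alpha-inhibitor onto hyaluronan. Cd44 is the main cell-surface receptor for the polymer and is carried by leukocytes, fibroblasts and epithelial cells. Hyaluronan is known to accumulate in the injured and the fibrotic lung.

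Promoter sequence is shown for the members that were called changed against day 0 and that have a window in the promoter table, namely Cemip, which rose most, and Hyal1, which was the one to fall. RefSeq (GRCm38.p6) held windows for 6 of the 8 genes, and each run below is the 250 bases before the annotated start, printed 5′ to 3′ on the gene's strand. Cemip lies at chr7:84086506-84086755 on the minus strand and Hyal1 at chr9:107576700-107576949 on the plus strand. Capitals mark matches on either strand to the TATA box (TATAAA), the GC box (GGGCGG), the CCAAT box (CCAAT), the AP-1 motif (TGAGTCA) and the E box (CACGTG).
Cemip: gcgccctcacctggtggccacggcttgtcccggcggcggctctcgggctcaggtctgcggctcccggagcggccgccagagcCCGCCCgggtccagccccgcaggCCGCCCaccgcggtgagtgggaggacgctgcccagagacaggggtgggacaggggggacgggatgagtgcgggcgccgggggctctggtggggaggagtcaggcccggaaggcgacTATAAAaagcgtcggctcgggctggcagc
Hyal1: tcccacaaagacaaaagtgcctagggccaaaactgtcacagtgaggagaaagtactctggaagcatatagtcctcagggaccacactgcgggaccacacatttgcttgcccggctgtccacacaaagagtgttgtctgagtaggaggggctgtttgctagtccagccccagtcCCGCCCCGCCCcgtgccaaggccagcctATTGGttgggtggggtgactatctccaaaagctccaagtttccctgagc
The Cemip window held a TATA box 29 bases before the start, GC boxes at 168 and 145 bases, and 26 CpG pairs, more than 90.4% of the 32851 windows, whose median was 6. The Hyal1 window held GC boxes at 77 and 72 bases that overlap by their end bases, a CCAAT box at 49 bases and 5 CpG pairs. Over all windows, 12.4% held the TATA box, 32.7% the GC box, 33.8% the CCAAT box, 4.46% the AP-1 motif and 6.02% the E box. Among the other members with a window, the AP-1 motif was matched in Tnfaip6 alone. These are letter matches and not measured binding sites.

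The rise of Has2 and Cemip from near the detection floor was the main change among the 8 genes. At day 7, 2 of the 8 passed both thresholds and both were higher, where 16.1% of all genes tested passed (8.78% higher and 7.36% lower). By day 14 the number was 3, with Has2 and Cemip higher and Hyal1 lower, against 23.1% of all genes (12% higher and 11.2% lower). It was 2 without day 0 replicate 4, the library with the conflicting treatment label, since Hyal1 was then not called, and 2 to 4 over the alternatives run. At day 21, Has2 and Cemip were again the 2 members called, beside 22.5% of all genes, 12.4% being higher. The median log2 fold change of the 8 genes was 0.27, 0.23 and 0.10 at days 7, 14 and 21, where that of all genes tested was 0.01, 0.02 and 0.02. All 8 passed the filter on low counts, Has2 and Cemip doing so with their later libraries. In whole-lung RNA, more cells of a type and more RNA per cell cannot be told apart for any gene described here.

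**Figure D1:**
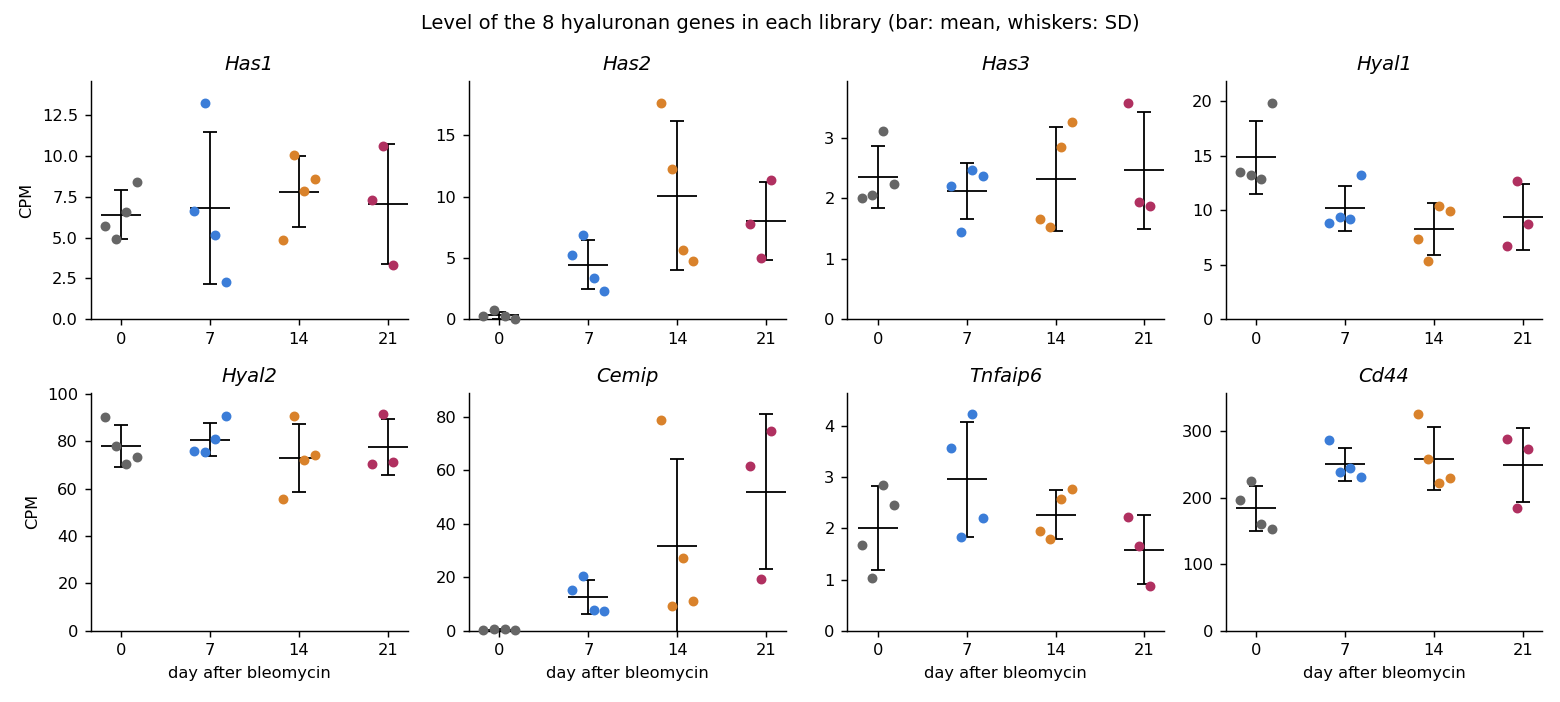
Level of each of the 8 genes in CPM (vertical axis, from 0) at days 0, 7, 14 and 21, with 1 point per library, a bar for the mean and whiskers for the SD (that of Cemip at day 14 is cut at 0). Has2 and Cemip lie near 0 in the 4 day 0 libraries and above them in every later library. Hyal1 lies below all day 0 libraries at days 14 and 21, and Has1, Has3, Hyal2 and Tnfaip6 overlap with day 0 at each day.

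Has2 (ENSMUSG00000022367, chr15:56665627-56694539, minus strand, GRCm38) was nearly absent from the untreated lung. Its day 0 libraries held 0.259, 0.726, 0.254 and 0 CPM, from 4, 12, 4 and 0 counts, and the library at 0 allows up to 0.167 CPM by counting error alone. At day 7 the levels were 5.21, 6.86, 3.35 and 2.32 CPM, so the lowest of them stood above the highest of day 0. Day 14 gave 17.7, 12.2, 5.61 and 4.71 CPM, and day 21 gave 7.73, 4.96 and 11.4 CPM. No library from mice given bleomycin overlapped with day 0, while the 3 later days overlapped with each other. Of all genes tested, 17.6%, 16.8% and 19.4% lay wholly above day 0 at days 7, 14 and 21. Against day 0 the log2 fold change was 3.83 ± 0.66 (SE, adjusted p = 0.001016 by edgeR) at day 7, 5.00 ± 0.66 (adjusted p = 5.51e-05) at day 14 and 4.68 ± 0.68 (adjusted p = 0.0001456) at day 21. These sizes rest on few day 0 counts: leaving out day 0 replicate 2 gave 4.67, 5.85 and 5.51, and leaving out day 0 replicate 4 gave 3.37, 4.55 and 4.21, each of them still called. Has2 changed by 3.12 at day 7 within the libraries of lower mitochondrial share, and by 5.88 at day 14 within the other libraries of days 0 and 14. The antisense gene Has2os shares 182 bases, or 4.3%, of the Has2 exons and averaged 0.0589 CPM at day 0 and 0.342 CPM at day 21, below the filter.

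Has1 (ENSMUSG00000003665, chr17:17843323-17855205, minus strand) varied between libraries rather than between days. It was at 5.70, 4.90, 6.60 and 8.42 CPM at day 0, and at 6.63, 13.3, 5.16 and 2.26 CPM at day 7, where the libraries spanned both sides of the day 0 range. The day 14 levels were 4.84, 10.1, 7.84 and 8.57 CPM and the day 21 levels 7.30, 10.6 and 3.29 CPM. Its log2 fold changes against day 0 were 0.09 ± 0.43, 0.29 ± 0.43 and 0.14 ± 0.46 at days 7, 14 and 21 (adjusted p = 0.896, 0.641 and 0.8495), with 95% intervals that reached from -0.75 to 0.94, from -0.56 to 1.13 and from -0.77 to 1.05. The day 7 and day 21 values turned sign in some alternatives. Has1 changed by 0.36 at day 7 within the libraries of lower mitochondrial share and by 0.22 at day 14 within those of higher share. Mesothelial markers (Msln, Upk3b, Upk1b, Wt1 and Lrrn4), whose cells line the lung surface, summed to 132.3 CPM in day 7 replicate 4, the library lowest in Has1, and to 505.8 CPM in day 7 replicate 2, the highest. At day 14 replicate 2 was likewise the highest in both (977.9 CPM of markers) and replicate 1 the lowest in both (432.9 CPM), and at day 21 replicate 2 was the highest in both (724.5 CPM) and replicate 3 the lowest in both (448.0 CPM). At day 0 this order did not hold, since replicate 4 was the highest in Has1 and the lowest in the markers (218.5 CPM). The part of the markers in the Has1 levels was not tested.

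Has3 (ENSMUSG00000031910, chr8:106870242-106884566, plus strand) stayed low. It ranged from 2.01 to 3.11 CPM at day 0, from 1.45 to 2.47 CPM at day 7, from 1.53 to 3.26 CPM at day 14 and from 1.88 to 3.59 CPM at day 21. The log2 fold changes were -0.14 ± 0.32, -0.01 ± 0.32 and 0.07 ± 0.34 (adjusted p = 0.773, 0.980 and 0.901), and their sign depended on the setting. Matched on mitochondrial share, they were 0.049 at day 7 and -0.07 at day 14. At 24 to 58 counts per library, the 95% intervals left room for changes from -0.76 to 0.73 on the log2 scale over the 3 days. Chtf8 on the opposite strand shares 352 bases, or 5.52%, of the Has3 exons, and the library kit does not mark strand.

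Per kilobase of exon, the make-up of the synthase mRNA differed between day 0 and the later days. Has1 accounted for 75.7% ± 6.62 (SD, n = 4) of the summed synthase level at day 0, Has3 for 19.9% ± 3.5 and Has2 for 4.39% ± 4.6. The Has2 share was 36.7% ± 3.28 (n = 4) at day 7, 49.8% ± 19.7 (n = 4) at day 14 and 49.5% ± 21.1 (n = 3) at day 21. By library it lay between 0% and 10.9% at day 0 and between 30.6% and 75.8% at the later days. Has2 was the most abundant synthase mRNA in day 7 replicate 4, day 14 replicates 1 and 2 and day 21 replicates 1 and 3, and Has1 was in the other 10 libraries. The summed level was 1.58 to 2.21 CPM per kilobase at day 0, 1.42 to 4.79 at day 7, 3.51 to 5.5 at day 14 and 3.7 to 4 at day 21, so day 7 overlapped with day 0 and the later days did not. The shares and sums were not tested apart from the tests of each gene.

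**Figure D2:**
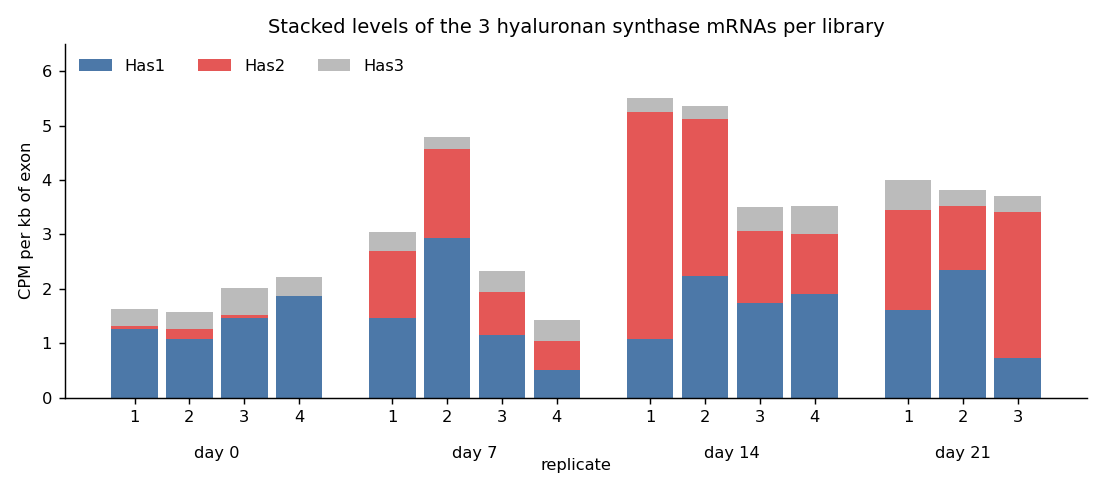
Stacked level of Has1, Has2 and Has3 mRNA in each library, in CPM per kilobase of exon (vertical axis, from 0), by replicate within each day. The Has2 segment is a sliver at day 0 (0% to 10.9% of the bar) and 30.6% to 75.8% of the bar at days 7 to 21, while the Has1 segment varies from library to library.

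Among the genes that degrade hyaluronan, Cemip rose, Hyal1 was lower at day 14 and Hyal2 was not called at any day. Cemip (ENSMUSG00000052353, chr7:83932857-84086502, minus strand) stood at 0.194, 0.484, 0.571 and 0.279 CPM at day 0, from 3 to 9 counts. At day 7 it was at 15.2, 20.6, 7.91 and 7.25 CPM. Day 14 gave 78.8, 9.12, 27.3 and 11.0 CPM, and day 21 gave 61.7, 19.4 and 74.9 CPM. Every later library stood above every day 0 library, as did those of 17.6%, 16.8% and 19.4% of all genes tested at days 7, 14 and 21, and within days 14 and 21 the libraries spread widely. The log2 fold change against day 0 was 5.04 ± 0.85 (adjusted p = 0.0008522 by edgeR) at day 7, 6.35 ± 0.85 (adjusted p = 5.873e-05) at day 14 and 7.06 ± 0.87 (adjusted p = 4.028e-05) at day 21. One library weighed on the day 14 size, which was 5.33 without replicate 1, and among libraries of higher mitochondrial share it was 5.20, both still called. Within lower-share libraries the day 7 value was 5.17.

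Hyal2 (ENSMUSG00000010047, chr9:107567945-107572779, plus strand), the cell-surface enzyme, had the smallest standard errors of the 8 genes. Its levels were 90.2, 77.8, 70.2 and 73.2 CPM at day 0, 75.3 to 90.4 CPM at day 7, 55.7 to 90.6 CPM at day 14 and 70.6 to 91.3 CPM at day 21. The log2 fold changes were 0.05 ± 0.14, -0.09 ± 0.14 and -0.003377 ± 0.15 (adjusted p = 0.821, 0.644 and 0.989), and the 95% intervals of all 3 lay between -0.36 and 0.32. Its sign at each day turned in at least 1 alternative. Matched on mitochondrial share, Hyal2 changed by -0.075 at day 7 and by 0.13 at day 14.

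Hyal1 (ENSMUSG00000010051, chr9:107576927-107581710, plus strand), the lysosomal enzyme, was lower at day 14. Day 0 held 13.5, 13.2, 12.9 and 19.9 CPM and day 7 held 8.78, 9.38, 9.23 and 13.3 CPM, so 3 of 4 day 7 libraries lay below all of day 0. At day 14 the levels were 7.39, 5.29, 10.4 and 9.96 CPM and at day 21 they were 6.68, 12.7 and 8.76 CPM, all below the day 0 range. The share of all genes tested that lay wholly below day 0 was 14.4% at day 14 and 16% at day 21. Its log2 fold change was -0.85 ± 0.24 (adjusted p = 0.01475) at day 14, which passed, and -0.55 ± 0.24 (adjusted p = 0.1065) at day 7 and -0.66 ± 0.27 (adjusted p = 0.07106) at day 21, which did not. The day 14 call was also lost when the change was tested against the 1.5-fold threshold itself (edgeR's glmTreat, adjusted p = 0.2766). Without day 0 replicate 4, the library highest in Hyal1 and the one with the conflicting treatment label, the day 14 change was -0.70 (adjusted p = 0.05344) and no longer called. Among libraries of higher mitochondrial share it was -0.95 (adjusted p = 0.07118), and the day 7 change among those of lower share was -0.41 (adjusted p = 0.1683). At day 21 the change was -0.98 (adjusted p = 0.02032) without replicate 2 and -0.68 (adjusted p = 0.04006) by DESeq2, both called. Adipose markers (Adipoq, Plin1, Cfd, Lep and Cidec) were measured beside it, summing to 19.2 to 51.6 CPM at day 0, 7.65 to 91.5 CPM at day 7, 1.004 to 3.64 CPM at day 14 and 0.741 to 2.54 CPM at day 21. Of the 4 that could be tested, 1, 4 and 3 were called lower at days 7, 14 and 21. The libraries highest in Hyal1 at days 0 and 7 held 50.9 and 91.5 CPM of these markers. These were the second highest sum of day 0 and the highest of day 7. At days 14 and 21 this order did not hold. Day 14 replicate 2 was the lowest in Hyal1 and the highest in the markers (3.64 CPM). Day 21 replicate 2 was the highest in Hyal1 and the lowest in the markers (0.741 CPM). The part of the markers in the Hyal1 result was not tested. Naa80, an acetyltransferase gene of the same strand, shares 1920 bases with Hyal1, and 51.9% of the Hyal1 exon length overlaps Naa80 or Hyal3. Naa80 itself changed by -0.49, -0.56 and -0.72 (adjusted p = 0.05203, 0.02437 and 0.01119) and was called at day 21, and how the shared bases were counted is not given in the sources used here.

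**Figure D3:**
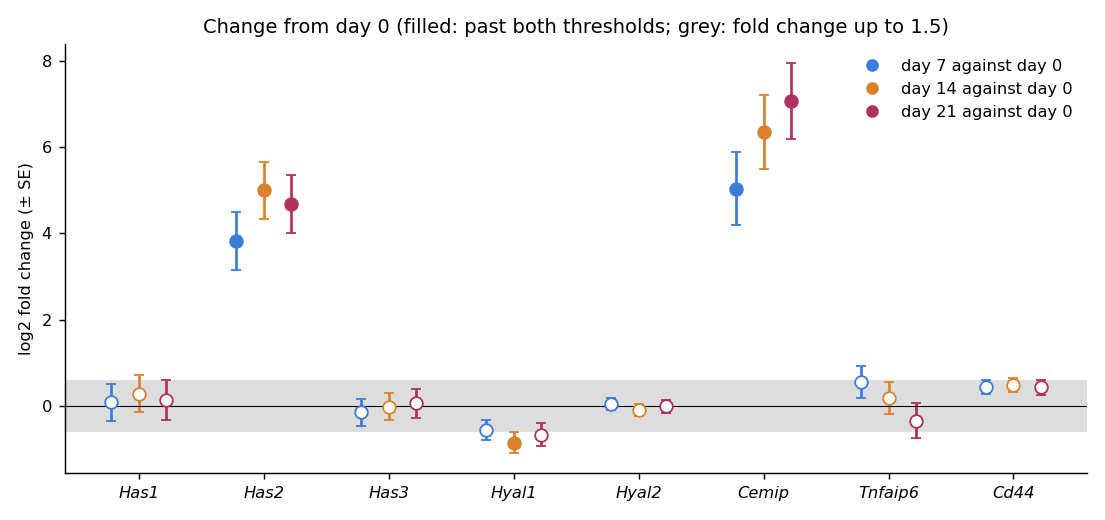
Log2 fold change of each of the 8 genes against day 0 (vertical axis, points with SE) at days 7, 14 and 21, with filled points for changes past both thresholds and a grey band for fold changes up to 1.5. Has2 (3.83 to 5.00) and Cemip (5.04 to 7.06) stand far above the band. Hyal1 lies below it at day 14 (-0.85, filled) and at day 21 (-0.66, open), and no other point is filled.

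Tnfaip6 (ENSMUSG00000053475, chr2:52038009-52056686, plus strand), whose product decorates hyaluronan with protein chains, was not called at any day. The day 0 levels were 1.68, 1.03, 2.86 and 2.45 CPM and those of day 7 were 3.57, 1.84, 4.23 and 2.20 CPM, with 2 of 4 above all of day 0. Levels ran from 1.79 to 2.78 CPM at day 14, and were 2.23, 1.65 and 0.882 CPM at day 21. The log2 fold changes against day 0 were 0.56 ± 0.37, 0.18 ± 0.37 and -0.34 ± 0.41 (adjusted p = 0.279, 0.745 and 0.571). Within libraries of lower mitochondrial share Tnfaip6 changed at day 7 by 1.11 (adjusted p = 0.1024), and by 1.15 (adjusted p = 0.0815) when that share was a term of the fit. At day 14 it changed by -0.17 (adjusted p = 0.7682) within libraries of higher share. With 15 to 77 counts per library, the 95% interval at day 7 reached from -0.16 to 1.28.

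Cd44 (ENSMUSG00000005087, chr2:102811141-102901665, minus strand), the receptor, was the most abundant of the 8 and passed both thresholds at no day. Its levels were 197.2, 225.7, 160.7 and 153.5 CPM at day 0 and 286.5, 238.2, 245.5 and 231.3 CPM at day 7. At day 14 they were 325.5, 258.6, 221.9 and 229.3 CPM, and at day 21 they were 287.9, 185.2 and 273.5 CPM. All 4 day 7 libraries, 3 of 4 at day 14 and 2 of 3 at day 21 stood above every day 0 library, and the share of all genes tested that lay wholly above day 0 was 17.6% at day 7 and 16.8% at day 14. The log2 fold change was 0.44 ± 0.17 (adjusted p = 0.06203) at day 7, 0.49 ± 0.17 (adjusted p = 0.03295) at day 14 and 0.43 ± 0.18 (adjusted p = 0.07821) at day 21. The day 14 value passed the p threshold at a fold of 1.405, under the 1.5 required. The day 7 change was 0.23 (adjusted p = 0.202) in libraries of lower mitochondrial share. At day 14 it was 0.58 (adjusted p = 0.02909) among those of higher share.

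The 3 later days were then compared with each other, to see whether the levels went on moving after day 7. Between days 7 and 14 none of the 8 genes was called, where 6% of all genes were (2.77% higher and 3.23% lower): Has2 had a log2 fold change of 1.18 ± 0.50 (adjusted p = 0.1578) and Cemip of 1.31 ± 0.59 (adjusted p = 0.1773). Both sizes moved with the setting and neither was called: without day 14 replicate 1 they were 0.76 and 0.32, and with the mitochondrial share in the fit they were 2.06 and 2.06 (adjusted p = 0.08289 and 0.1116). Between days 7 and 21 Cemip was the 1 member called, at 2.03 ± 0.62 (adjusted p = 0.04392), where 9.54% of all genes were called and 5.2% were higher. In this comparison 2 of 3 day 21 libraries stood above all of day 7. The Cemip call was lost without day 7 replicates 1, 3 or 4 (adjusted p = 0.0859, 0.1085 and 0.1033). It was also lost without day 21 replicates 1 or 3 (adjusted p = 0.1195 and 0.1259). With all libraries kept, it was lost by limma voom (adjusted p = 0.05573), with replicate number as a block in edgeR's fit (0.08576) and by glmTreat (0.2066). Has2 changed by 0.85 ± 0.54 (adjusted p = 0.2979) and Tnfaip6 by -0.90 ± 0.41 (adjusted p = 0.1501) between the same days. Between days 14 and 21 edgeR called 0 of the 17457 genes, although 1714 had an unadjusted p under 0.05, and the values were -0.33 ± 0.53 for Has2 and 0.72 ± 0.61 for Cemip (adjusted p = 0.869 and 0.727). The Cemip value ran from 0.33 without day 21 replicate 3 to 1.70 without day 14 replicate 1 (adjusted p = 0.8813 and 0.122).

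The order of the 8 genes, per kilobase of exon, shifted between day 0 and the later days. At day 0 Cd44 led with 27.2 ± 4.96 CPM per kilobase (SD, n = 4) and Hyal2 followed with 23.65 ± 2.68, and their ranges overlapped. Below them came Hyal1 (3.94 ± 0.885), Has1 (1.42 ± 0.335) and Tnfaip6 (1.17 ± 0.476), the last pair overlapping, then Has3 (0.369 ± 0.0808) and, overlapping at the foot, Has2 (0.0731 ± 0.0714) and Cemip (0.0312 ± 0.0143). By day 14 Cd44 (38.2 ± 6.97) and Hyal2 (22.2 ± 4.34) did not overlap, and Cemip (2.58 ± 2.66), Has2 (2.37 ± 1.44), Hyal1 (2.18 ± 0.627), Has1 (1.73 ± 0.487) and Tnfaip6 (1.33 ± 0.280) overlapped from one to the next. Cemip, last at day 0, held the third place at day 21 with 4.25 ± 2.37 (n = 3), overlapping with Hyal1 at 2.48 ± 0.810. Cd44 (36.7 ± 8.20) and Hyal2 (23.6 ± 3.59) overlapped again at day 21. Has3 was the lowest at days 7, 14 and 21.

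Fibroblasts, macrophages and epithelial cells are among those known to bear these genes, so marker lists were read beside the members. The 7 fibroblast markers (Pdgfra, Pdgfrb, Col1a1, Col1a2, Dcn, Lum and Tcf21) summed to 1161 to 1616 CPM at day 0, 3312 to 4185 CPM at day 7, 2592 to 10277 CPM at day 14 and 3609 to 7304 CPM at day 21, with 3, 3 and 4 of the 7 called higher and 0, 1 and 1 called lower. Day 14 replicate 1 was the highest of the 15 libraries in these markers, in Has2 and in Cemip. Day 21 replicates 1 and 3 came next in the markers and in Cemip. Within day 7 the order did not hold, since replicate 4 was the highest in the markers (4185 CPM) and the lowest in Has2 and Cemip. Day 14 replicate 2, the next highest library in Has2 (12.2 CPM), held 3345 CPM of the markers. The 5 myofibroblast markers summed to 322 to 378 CPM at day 0 and to 598 to 1585 CPM at the later days, and the 6 macrophage markers to 369 to 428 CPM and to 550 to 1530 CPM. Pan-leukocyte markers overlapped between day 0 (434 to 641 CPM) and the later days (417 to 765 CPM), with 0, 2 and 1 of the 4 called higher. Other leukocyte lists held markers that fell. The 5 neutrophil markers summed to 388 to 865 CPM at day 0 and to 73.9 to 434 CPM at the later days, with 4, 2 and 4 called lower at days 7, 14 and 21, and the 4 B cell markers to 75.3 to 136 CPM and to 14.4 to 110 CPM, with 0, 4 and 4 called lower. The 5 alveolar macrophage markers overlapped between day 0 (656 to 963 CPM) and the later days (441 to 3317 CPM), with 1, 1 and 2 called lower and 0, 1 and 0 higher. Epithelial markers moved in both directions. The 4 markers of transitional epithelium (Krt8, Krt18, Cldn4 and Sfn) summed to 301 to 407 CPM at day 0, 820 to 1194 CPM at day 7, 484 to 1024 CPM at day 14 and 580 to 850 CPM at day 21, with 4, 4 and 3 called higher. The 5 alveolar type 2 markers summed to 25529 to 35472 CPM at day 0 and 4220 to 8890 CPM at day 21, with 0, 3 and 5 called lower. No gene of these lists was at 0 in any library, and the part of any of these cell types in the Has2, Cemip or Cd44 results was not tested.

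**Figure D4:**
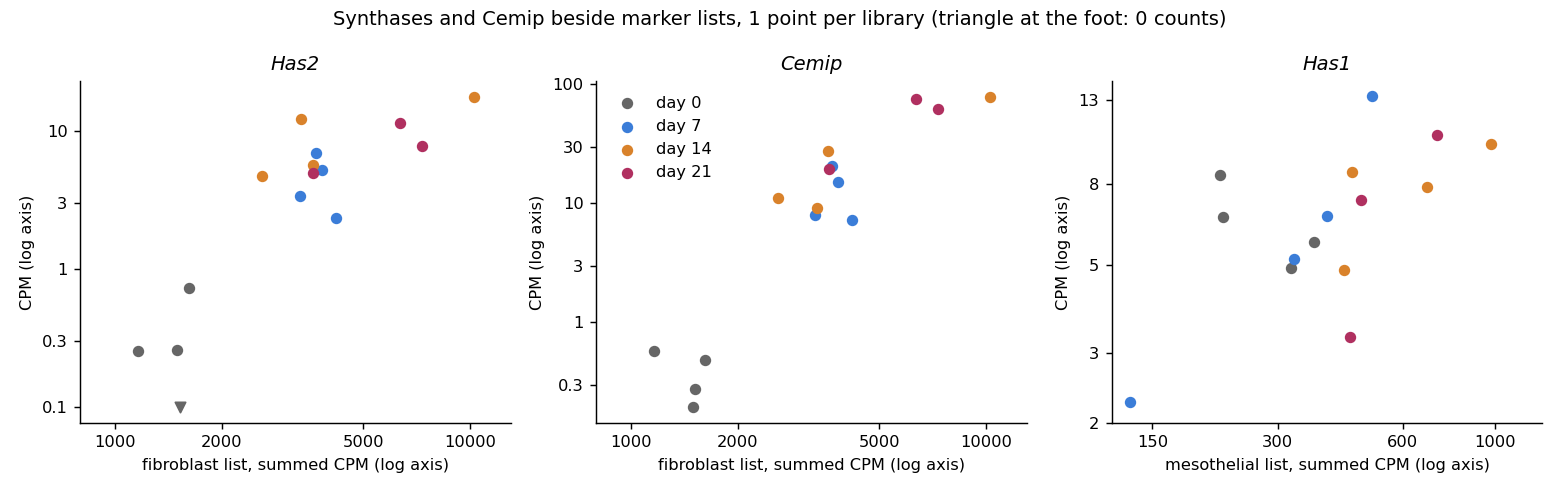
Has2 and Cemip (CPM, log axis) against the summed fibroblast markers and Has1 against the summed mesothelial markers (CPM, log axes), 1 point per library colored by day, with a triangle for the day 0 library at 0 Has2 counts. The day 0 libraries lie apart at the lower left of the first 2 panels (1161 to 1616 CPM of markers), and day 14 replicate 1 (10277 CPM) lies at the upper right of both.

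The genes whose levels most resembled each member over the 15 libraries were picked by Pearson's r of log2 CPM among 11806 genes (11807 for Has3 and Tnfaip6), as a description without a test. Since days 7 to 21 lie apart from day 0 for Has2 and Cemip, r is given also after each day's mean was removed. Has2 was most like Litaf (r = 0.982, within days 0.868), Clec5a (0.973 and 0.874) and Slc7a8 (0.966 and 0.725). For Cemip these were Ccn4 (0.983 and 0.838), a secreted matrix-associated protein, Rab3il1 (0.978 and 0.847) and Shc4 (0.9775 and 0.834). Hyal1 resembled Bcl9l (0.964 and 0.930), Atf7 (0.9485 and 0.960) and Kmt5b (0.948 and 0.924), and Cd44 resembled Tnfaip8 (0.955 and 0.914), Mcub (0.943 and 0.929) and Glipr1 (0.939 and 0.914). The best match was lower for the other members, at 0.851 for Has1 (Tnk2), 0.839 for Hyal2 (Galnt18), 0.8145 for Tnfaip6 (Tedc2) and 0.765 for Has3 (Zfp157).

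Around these 8 genes, 47 further genes of hyaluronan biology were listed by role, 46 were in the table and 36 passed the filter on low counts. Of the 36, 11 were higher and 1 lower at day 7, 15 higher and 3 lower at day 14, and 16 higher and 5 lower at day 21. Their median log2 fold change was 0.46, 0.37 and 0.41, and the shares called in all genes are those given above. Of the 7 enzymes that make the sugar precursors, 2 were called higher at day 7 and 1 each at days 14 and 21, and none lower, beside 16.1%, 23.1% and 22.5% of all genes called in either direction.

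Among the other degrading enzymes, the lysosomal exoglycosidase gene Gusb, whose product trims sugars from hyaluronan fragments, was higher at all 3 days. Gusb went from a mean of 66.3 CPM at day 0 to 129.9, 151.8 and 146.7 CPM, with log2 fold changes of 0.97 ± 0.17, 1.20 ± 0.17 and 1.15 ± 0.18 (adjusted p = 0.0009573, 8.463e-05 and 0.0002394). The day 7 call was not made by glmTreat (adjusted p = 0.07954). Hyal3, which shares 159 bases with Hyal1, was at a mean of 0.837 CPM at day 0. It was called lower at day 21 (-1.48 ± 0.53, adjusted p = 0.04576 by edgeR). The call was lost without any 1 of the 4 day 0 libraries or without day 21 replicate 1 or 2 (adjusted p from 0.0543 to 0.1572). It was also lost with replicate number as a block in the fit (adjusted p = 0.05756), without the filter on low counts (0.09286) and with days 0 and 21 fitted alone (0.09971).

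Receptors other than Cd44 were called higher in 2, 4 and 6 of 7 cases at days 7, 14 and 21, where 8.78%, 12% and 12.4% of all genes tested were, and in no case lower. Hmmr, a hyaluronan-binding protein of the mitotic spindle, rose from 2.01 CPM at day 0 to 11.0, 15.3 and 8.10 CPM, with log2 fold changes of 2.45, 2.93 and 2.01 (adjusted p = 9.134e-05, 7.954e-06 and 0.0003254). The 5 cell division markers moved with it, summing to 25.8 to 46.2 CPM at day 0, 143 to 205 CPM at day 7, 198 to 270 CPM at day 14 and 65.1 to 174 CPM at day 21, and their part in the Hmmr result was not tested. The scavenger receptor Stab2, which clears hyaluronan from the blood in liver sinusoids, had changes of 0.64 (adjusted p = 0.07598), 1.75 (adjusted p = 0.0001088) and 2.17 (adjusted p = 3.588e-05), from 1.81 CPM at day 0 to 8.18 CPM at day 21. Its relative Stab1 had changes of 0.42 (adjusted p = 0.05349), 0.80 (adjusted p = 0.001099) and 1.08 (adjusted p = 0.0002021), of which glmTreat did not call day 14 (adjusted p = 0.1819). Lymphatic endothelial markers summed to 170 to 214 CPM at day 0 and 161 to 182 CPM at day 7. They summed to 243 to 282 CPM at day 14 and 410 to 537 CPM at day 21. Their part in the Stab1 and Stab2 levels was not tested. The receptor Lyve1 was not called at any day (-0.64, -0.30 and -0.07, adjusted p = 0.1652, 0.5144 and 0.9043 by edgeR). It lies outside the rule for named genes.

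Of the 4 tested proteins that bind hyaluronan in the matrix, 3 were higher and 1 lower at days 14 and 21, beside 12% and 12.4% of all genes higher and 11.2% and 10.1% lower. Ptx3, a pentraxin that joins TNFAIP6 protein in hyaluronan-rich matrix, rose at all 3 days by 1.94, 3.38 and 3.60 (adjusted p = 0.001324, 6.865e-06 and 8.441e-06), from 0.991 CPM to 12.1 CPM at day 21. Hapln1, the link protein that ties proteoglycans to hyaluronan, had changes of 0.98 (adjusted p = 0.05298), 3.07 (adjusted p = 1.21e-05) and 3.18 (adjusted p = 1.695e-05). The proteoglycan gene Vcan was higher at day 7 by 1.83 (adjusted p = 0.007253), from 16.2 to 57.6 CPM, a call that glmTreat did not make (adjusted p = 0.05343). Its calls at days 14 (1.23) and 21 (1.40) leaned on single libraries and on the setting. Without day 14 replicate 1 the day 14 change was 0.62 (adjusted p = 0.215). With days 0 and 14 fitted alone it was 1.22 (adjusted p = 0.07926 by edgeR) and not called. The Vcan call was also lost at both days without day 0 replicate 3 or 4, and at day 21 without replicate 1 or 3. Bcan, a proteoglycan best known from brain, was called lower at day 14 (-1.80, adjusted p = 0.03405) and day 21 (-4.17, adjusted p = 0.001377), from 8.54 CPM to 0.461 CPM, and the day 14 call was lost without any 1 day 0 library or without day 14 replicate 1 or 2 (adjusted p from 0.0504 to 0.0874).

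The inter-alpha-inhibitor family, some of whose heavy chains TSG-6 transfers to hyaluronan, moved in both directions. Itih5 was lower at all 3 days (-1.17, -1.66 and -1.29, adjusted p = 0.00437, 0.0002212 and 0.002927), Itih1 at days 14 and 21 (-1.60 and -2.09, adjusted p = 0.01762 and 0.009039) and Itih4 at day 21 (-2.18, adjusted p = 0.006612, from 77.7 to 17.1 CPM). Itih3 was higher at all 3 days (1.22, 1.09 and 2.00, adjusted p = 0.008814, 0.01153 and 0.0002855). By glmTreat the calls of Itih5 at day 7 (adjusted p = 0.08356), of Itih1 at day 14 (adjusted p = 0.08621) and of Itih3 at days 7 and 14 (adjusted p = 0.1099 and 0.1203) were not made. Among the 8 partners of CD44, 2, 3 and 3 were higher at days 7, 14 and 21 and none was lower, where 8.78%, 12% and 12.4% of all genes were higher and 7.36%, 11.2% and 10.1% lower. Spp1, the secreted ligand osteopontin, went from a mean of 60.6 CPM at day 0 to 533.6, 2149 and 2848 CPM, with log2 fold changes of 3.14 ± 0.42, 5.15 ± 0.46 and 5.55 ± 0.47 (adjusted p = 0.0001477, 2.33e-06 and 3.132e-06). Mmp14, a membrane protease that can cut CD44, went from 59.1 to 249.6, 379.8 and 420.6 CPM, with changes of 2.08, 2.69 and 2.83 (adjusted p = 0.0001341, 6.89e-06 and 9.768e-06). Within libraries of higher mitochondrial share, 4 of the day 14 calls named here were not made: Bcan (-1.53, adjusted p = 0.0887), Itih1 (-1.19, adjusted p = 0.0731), Itih3 (0.90, adjusted p = 0.1154) and Stab1 (0.57, adjusted p = 0.0539).

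**Figure D5:**
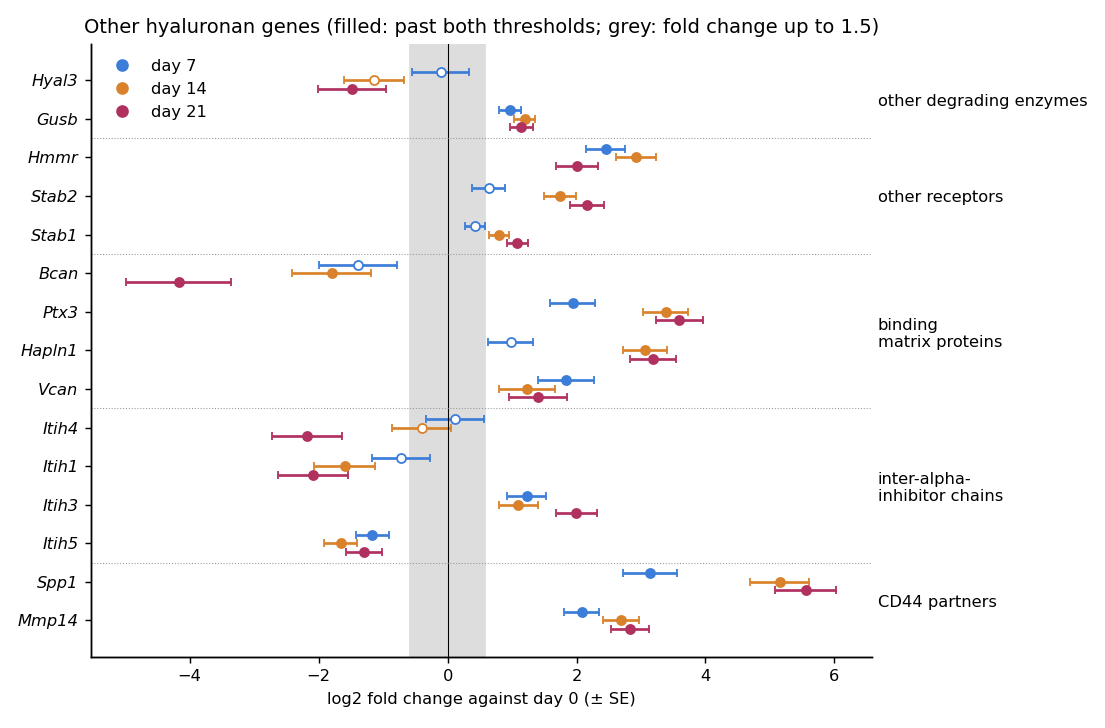
Log2 fold change against day 0 (horizontal axis, points with SE) at days 7, 14 and 21 for 15 other hyaluronan genes with large changes among those called, grouped by role, with filled points for changes past both thresholds and a grey band for fold changes up to 1.5. Spp1 (3.14 to 5.55), Ptx3 (1.94 to 3.60) and Mmp14 (2.08 to 2.83) lie to the right at each day, while Itih5 (-1.66 to -1.17) lies to the left.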

How the data were processed

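The deposited table holds raw gene counts of 15 libraries. Per the labels and the study's methods, the authors sequenced NEBNext Ultra libraries as paired-end reads on a NovaSeq, trimmed them with TrimGalore, aligned them to GRCm38 (mm10) with HISAT2 2.1.0, left out reads with several alignments and counted reads per gene with HTSeq 0.6.0. The annotation release and the strand setting are not given in the sources used here, and the kit does not mark strand. Symbols, positions and union exon lengths came from GENCODE M21 on GRCm38, which matched 33267 of 33340 identifiers.

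Counts were filtered with filterByExpr and scaled by TMM, and all 15 libraries were fitted by day with edgeR 4.0.16 in R 4.3.3 (glmQLFit, glmQLFTest, common biological variation 22.8%). P-values were adjusted by Benjamini-Hochberg, and a call needed 0.05 together with a fold change past 1.5. The 95% intervals are ± 1.96 SE. CPM used TMM-adjusted library sizes, and log2 CPM a prior count of 2. The 3 comparisons with day 0 share its libraries, and so do the other pairs of days. The scripts were tested on simulated data. DESeq2 1.42.0, limma 3.58.1 (voom), other scalings and filters, the mitochondrial share, a replicate block, fitting the compared days alone and leaving out each library were tried as alternatives. The 8 genes, the pathway list and the marker lists were chosen with earlier results of these data known. Of the pathway list, the up to 16 genes called against day 0 with the largest change were named, save 1 that is not reported here. Same-numbered libraries did not deviate together (correlations from -0.244 to 0.221), and no pair of libraries of the same day agreed within sampling noise. Counting floors of 3 counts and intervals cover counting or library error only. The submitters' overall design text gave another number of replicates than the titles, and the titles were followed.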

Additional observations from a re-analysis of the deposited data

Results flagged for a closer look

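In 2 of the 24 groups of 4 libraries examined over the 8 members, 1 library stood far from the others, where chance gives about 5% of groups. Both concerned Hyal1: day 0 replicate 4 was at 19.9 CPM with the others between 12.9 and 13.5 CPM, and day 7 replicate 4 was at 13.3 CPM with the others between 8.78 and 9.38 CPM. The library at day 0 is the one whose treatment label and title disagree.

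The change from day 0 also differed between days for some genes, by the test of the later day against day 7. Between days 7 and 14 this held for Spp1 (log2 fold change 2.01, adjusted p = 0.01258), Ptx3 (1.44, adjusted p = 0.01621), Hapln1 (2.09, adjusted p = 0.003913) and Stab2 (1.11, adjusted p = 0.01746). Between days 7 and 21 it held for Spp1 (2.42, adjusted p = 0.00356), Ptx3 (1.66, adjusted p = 0.006384), Hapln1 (2.20, adjusted p = 0.001909), Stab2 (1.53, adjusted p = 0.00291) and Stab1 (0.66, adjusted p = 0.01823), which were higher at day 21. Cemip was also called higher at day 21 (2.03, adjusted p = 0.04392), a call that was lost in 8 of the 18 alternatives run. Bcan (-2.78, adjusted p = 0.03449) and Itih4 (-2.29, adjusted p = 0.01476) were lower at day 21 than at day 7, as were Ezr (-0.65, adjusted p = 0.01494), which links CD44 to the cell cortex, and Gfpt1 (-0.63, adjusted p = 0.03481), a precursor enzyme. Ezr and Gfpt1 lie outside the rule for named genes and were added after their values were seen, and with them all 5 higher and 4 lower pathway genes of this comparison are given.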

How the results depend on the processing

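Has2 and Cemip were called against day 0 at all 3 days under all alternatives run, with log2 fold changes of 3.12 to 4.67 and 4.22 to 5.26 at day 7, 4.55 to 5.88 and 5.20 to 6.63 at day 14, and 4.21 to 5.51 and 6.66 to 7.42 at day 21. The number of members called at day 21 against day 7 was 1, was 0 with limma voom, with a test against the fold threshold (glmTreat) and with the replicate block, was 2 (Cemip and Tnfaip6) with mitochondrial share in the fit, and ran from 0 to 1 without single libraries. The replicate block left 2, 3 and 2 members called against day 0, and same-numbered libraries share only a number. Of the calls of members and named genes, glmTreat lost Itih3, Vcan, Itih5 and Gusb at day 7 (adjusted p = 0.1099, 0.05343, 0.08356 and 0.07954), Hyal1, Bcan, Itih1, Itih3, Vcan and Stab1 at day 14 (0.2766, 0.1311, 0.08621, 0.1203, 0.1847 and 0.1819), Vcan and Hyal3 at day 21 (0.1288 and 0.1735), and Cemip at day 21 against day 7 (0.2066), since it asks for a change shown to exceed the threshold.

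Signs turned only in values that no test called. Has1 at day 7 was -0.14 with limma voom and -0.073 with the replicate block, and -0.45 to 0.38 without single libraries, and at day 21 it was -0.045 with the block and -0.32 to 0.44 without single libraries. Has3 at day 7 was 0.28 with the mitochondrial covariate, 0.049 in libraries of lower mitochondrial share and -0.24 to 0.002106 without single libraries. It was -0.22 to 0.13 at day 14, and -0.33 to 0.20 at day 21 without single libraries, and -0.00231 at day 21 with the covariate. Hyal2 was -0.075 at day 7 in lower-share libraries and 0.13 at day 14 in higher-share ones, and without single libraries -0.018 to 0.10 at day 7 and -0.18 to 0.039 at day 21. Tnfaip6 at day 14 was -0.17 in higher-share libraries and -0.063 to 0.37 without single libraries. Itih4 at day 7 was -0.01145 with limma voom and -0.040 to 0.37 without single libraries. Has2 at day 21 against day 14 was -0.69 to 0.081 without single libraries. The causes were not tested. Counts under 60 per library limit what can be seen of Has3.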

Other observations

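Within each of the 4 days, the library lowest in Cemip was the one highest in Hyal2, a pattern chosen among the 28 pairs of members after their values were seen and given without a test. These were day 0 replicate 1 (0.194 CPM of Cemip and 90.2 CPM of Hyal2), day 7 replicate 4 (7.25 and 90.4 CPM), day 14 replicate 2 (9.12 and 90.6 CPM) and day 21 replicate 2 (19.4 and 91.3 CPM). Hyal2 itself was not called between any days.

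Heart muscle markers, which can enter a lung sample with adjoining tissue, summed to 645.5 CPM in day 7 replicate 4 and to 757.9 CPM in day 21 replicate 1, and to 18.8 to 283.8 CPM in the other libraries. Their part in the member levels was not tested.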
